A study of Mus musculus with 8 samples.

Results

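Interferon-stimulated antiviral effector genes were examined in control and Hmgb1 knockout keratinocytes of mouse skin. The set was a list of 52 gene symbols from the IFIT, MX, guanylate-binding protein (GBP), immunity-related GTPase (IRG), IFITM, PARP, TRIM and ISG15 families and single genes of like function, and its members were found by symbol among the 24421 symbols of the count files. OAS genes, nucleic acid sensors and the STAT and IRF factors were not members. All 52 were in the files, and 49 of them were among the 13016 genes with enough counts to be tested. Keratinocytes came from skin of CBA x C57Bl/6J mice and gave 8 bulk RNA libraries. The 4 control libraries were labelled InvEE K5 Cre- HMGB1 fl/fl and the 4 knockout libraries InvEE K5 Cre+ HMGB1 fl/fl. All 8 therefore carried the InvEE transgene, an activated form of the kinase MEK1 driven by the involucrin promoter of suprabasal keratinocytes, and floxed Hmgb1 on both alleles. Cre under the K5 promoter, which acts in basal keratinocytes and so in the cells they give rise to, was present in the knockouts alone, so that effects of Cre and of losing Hmgb1 cannot be told apart. Hmgb1 encodes a chromatin protein that acts as an alarmin when released. The labels do not state the age or sex of the mice, nor whether each library came from a separate animal, and the p-values therefore reflect library-to-library variation of unstated origin, technical variation included.

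Interferons bind receptors that activate JAK kinases, which phosphorylate transcription factors of the STAT family. Type I and type III interferons act mainly through a complex with STAT2 and IRF9 that binds the interferon-stimulated response element (ISRE), and the response to interferon gamma runs mainly through the gamma-activated site (GAS). The effector genes downstream encode proteins that bind foreign RNA, block viral entry or release, attach the ubiquitin-like protein ISG15 to other proteins, or attack the vacuoles of intracellular microbes. Keratinocytes respond to interferons of all types, and epithelia are a main site of type III interferon action.

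Promoter sequence was compared because the members moved together across libraries. RefSeq promoter windows of GRCm38.p6, from 250 bases before to 50 after the annotated start, were found for 40 of the 52 members. The letters GAAANNGAAA, a core of the ISRE, were searched on both strands, with overlapping matches counted. They occurred in at least 1 window of 20 of these 40 genes (50%), against 3.44% of all 32851 windows and 3.71% of the 9906 tested genes with a window. The letters TTCNNNGAA, a core of the GAS that reads the same on both strands, occurred in 8 of the 40 genes (20%), against 8.30% of all windows. The GAS letters can overlap those of the ISRE, as they did in Bst2. A match describes letters and is no measured binding site. The 140 bases before the start of 6 genes, each from another subfamily, are printed here, 5′ to 3′ on the strand of the gene, with the ISRE letters in capitals.
Ifit1 (chr19:34640749-34640888, plus strand): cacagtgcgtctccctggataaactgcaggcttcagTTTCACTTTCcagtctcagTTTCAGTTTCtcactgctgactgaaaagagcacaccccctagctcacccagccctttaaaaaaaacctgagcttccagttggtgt
Isg15 (chr4:156200819-156200958, minus strand): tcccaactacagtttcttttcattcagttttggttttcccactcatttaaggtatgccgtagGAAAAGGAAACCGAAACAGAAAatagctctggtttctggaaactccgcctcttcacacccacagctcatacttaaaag
Bst2 (chr8:71537473-71537612, minus strand): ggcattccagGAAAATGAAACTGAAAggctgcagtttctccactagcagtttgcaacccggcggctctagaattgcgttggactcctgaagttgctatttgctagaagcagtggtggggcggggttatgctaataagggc
Ddx60 (chr8:61927947-61928086, plus strand): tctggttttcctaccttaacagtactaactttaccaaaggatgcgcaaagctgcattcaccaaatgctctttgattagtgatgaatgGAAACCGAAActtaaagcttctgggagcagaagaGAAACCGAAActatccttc
Gbp2 (chr3:142620523-142620662, plus strand): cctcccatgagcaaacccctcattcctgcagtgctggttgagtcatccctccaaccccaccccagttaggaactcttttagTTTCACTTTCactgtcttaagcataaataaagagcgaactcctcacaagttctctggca
Irgm1 (chr11:48871421-48871560, minus strand): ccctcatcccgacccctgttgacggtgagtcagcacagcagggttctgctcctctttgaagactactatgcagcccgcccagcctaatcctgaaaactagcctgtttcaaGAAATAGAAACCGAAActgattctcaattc

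In Isg15 the 3 matches ran into each other, from 78 to 57 bases before the start, and Ifit1 had 2 separate matches. Among members with ISRE letters, 5 of 19 tested genes passed the edgeR test and the median change was 1.83 (log2). Among members with a window and no such letters, 6 of 18 passed, with a median of 1.28. All that passed were higher in the knockout. The same test called 4.33% of all tested genes higher and 4.54% lower.

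Libraries held 30506676 to 34229030 counts on genes. The targeted gene fell in every knockout library: Hmgb1 stood at 565 to 615 CPM (counts in every 1000000 on genes, with library sizes scaled by TMM) in controls and 113 to 126 CPM in knockouts (log2 fold change -2.32, SE 0.09, adjusted p = 3.58e-07). Markers of keratinocytes were abundant in all libraries, with the 12 listed genes summing to 55599.7 to 64956 CPM in controls and 64440.3 to 71652 CPM in knockouts, mostly Krt5 and Krt14. Transcripts of the Y chromosome (4 genes) were present in control 2, control 3 and knockout 1, with 6110 to 6743 counts, and at 0 to 51 counts in the other 5 libraries. The groups were thus unequal in this respect, and knockout 1, the only knockout library with these transcripts, was also the lowest knockout library for most effector genes.

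Of the 49 tested effector genes, 17 rose in the knockout, 0 fell and 32 did not pass (edgeR quasi-likelihood test, Benjamini-Hochberg adjusted p under 0.05 over all tested genes). Across all 13016 tested genes, 4.33% were called higher and 4.54% lower by the same rule. The median log2 fold change of the members was 1.41, against -0.02 over all tested genes, and the fitted change was positive for 48 of 49, Ifitm2 being the exception. At an unadjusted p under 0.05, 41 members were higher and 0 lower, against 13.0% and 13.2% of all tested genes. All 4 knockouts exceeded all 4 controls for 20 of the 49 members, against 7.95% of all tested genes. The 17 genes that rose were Ifit3, Mx1, Mx2, Bst2, Ifi27l2a, Parp9, Dtx3l, Ddx60, Helz2, Lgals9, Apol9a, Ifi44, Ifi35, Xaf1, Rtp4, Phf11d and Tor3a. Groups overlapped for 2 of these, Parp9 and Dtx3l. A further 24 members had an unadjusted p under 0.05 and an adjusted p above the threshold. DESeq2 called 34 members higher and limma-voom 22, where they called 8.4% and 4.33% of all tested genes higher, and neither called a member lower. Scaling by library totals alone, without TMM, left 9 members called higher and 0 lower, and moved the share of higher calls among all calls from 48.8% to 27.1%. Because these libraries are bulk samples, fewer cells of a type and less RNA per cell cannot be told apart.

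Many of these calls changed when 1 library was left out, which also left fewer libraries for the test. The count of members called higher was 4, 9, 4 and 7 without control 1, 2, 3 and 4, and 23, 3, 8 and 4 without knockout 1, 2, 3 and 4. Over all tested genes, 563 were called higher in the full fit. Without 1 library that count ran from 200 (without knockout 2) to 678 (without knockout 3). Without knockout 1 the members called rose from 17 to 23, while the count over all tested genes fell to 352. Without knockout 3 the members called fell to 8, while the count over all tested genes rose to 678. In each of the other fits both counts fell. The parts of lost power and of single libraries in these changes were not tested. Only Mx2, Helz2 and Tor3a were called in all 8 of these fits, and Ifi27l2a, Apol9a and Rtp4 were called in none. The median log2 fold change kept its sign in all of them, from 1.02 without knockout 3 to 1.77 without knockout 1.

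**Figure D1:**
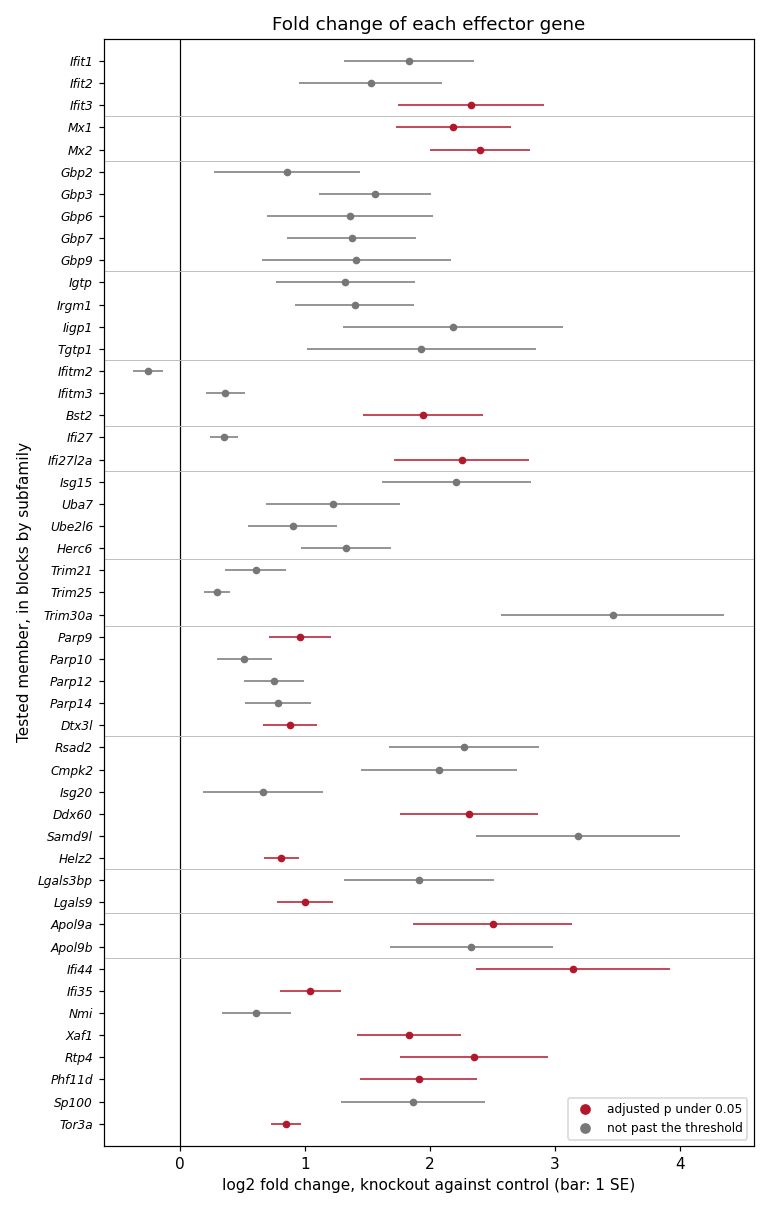
Fitted log2 fold change (knockout against control, x axis) with 1 standard error for each of the 49 tested effector genes (y axis, in blocks by subfamily), from 4 control and 4 knockout libraries. Red points passed an adjusted p under 0.05. All points but Ifitm2 lie to the right of 0, and the guanylate-binding protein, immunity-related GTPase, ISG15 and TRIM blocks hold no red point.

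Within each genotype the members were spread far more widely than most genes. The highest control was a median of 3.43 times the lowest over the tested members, and the highest knockout 3.55 times the lowest knockout. Over all tested genes these medians were 1.33 and 1.34. The within-group standard deviation of log2 CPM had a median of 0.79 in controls and 0.77 in knockouts for members, against 0.18 and 0.19 for all tested genes.

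Members shared the order of the libraries. Knockout 3 was the highest knockout for 47 of the 49 members and the highest of all 8 libraries for 46. Knockout 1 was the lowest knockout for 45. Among controls, control 3 was lowest for 35 members and control 1 for 13, while control 2 was highest for 33 and control 4 for 13. Averaged over the 49 members, log2 CPM relative to the mean of the 8 libraries was -1.14, -0.12, -1.45 and -0.27 in controls 1 to 4. In knockouts 1 to 4 it was -0.17, 0.66, 1.67 and 0.81. Knockout 1 thus lay at the level of controls 2 and 4, and above controls 1 and 3. It exceeded all 4 controls for 21 members, where knockouts 2, 3 and 4 did so for 46, 48 and 44. In controls this order did not run with the Y-linked transcripts, since each of the 2 higher and the 2 lower controls had 1 library with them and 1 without.

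**Figure D2:**
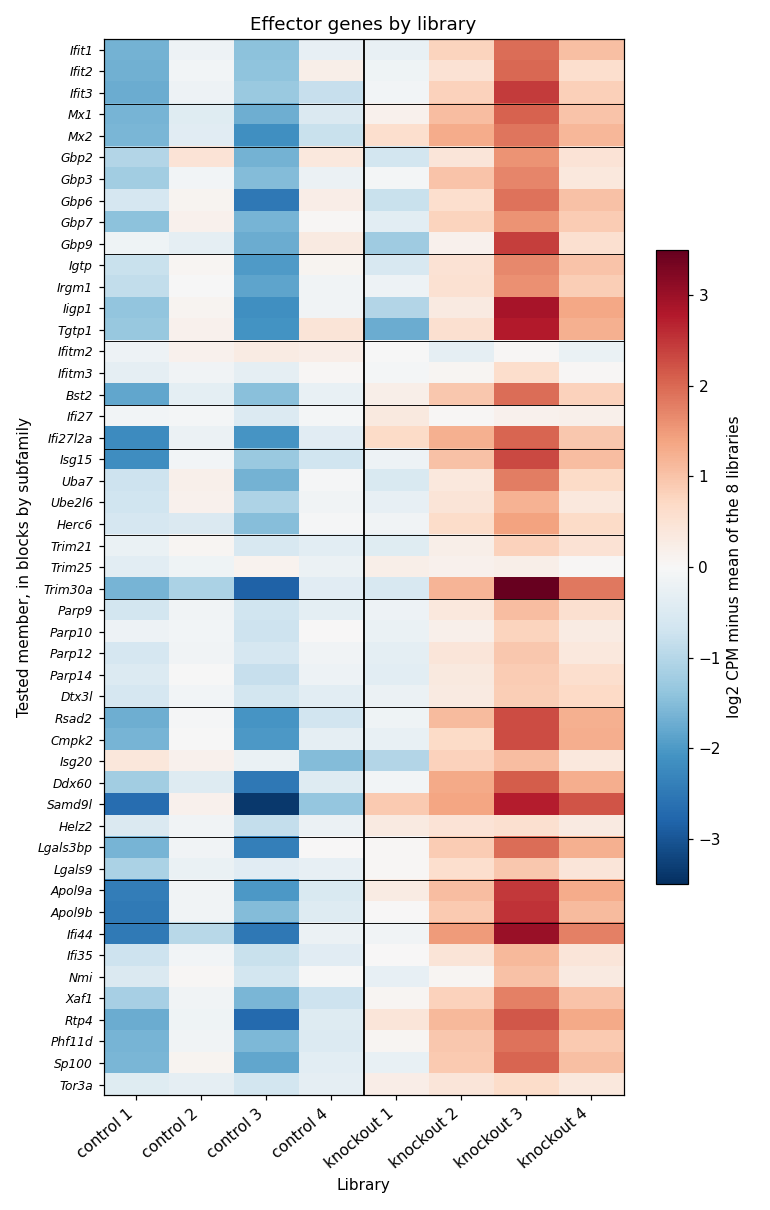
Log2 CPM of the 49 tested effector genes (rows, in blocks by subfamily) in each of the 8 libraries (columns), minus each gene's mean over the 8 libraries; red is above and blue below that mean. Knockout 3 is the reddest column in nearly every row, controls 1 and 3 are the bluest, and knockout 1 resembles controls 2 and 4.

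MX proteins are dynamin-like GTPases that trap viral nucleocapsids. Transcripts of both tested genes rose (2 of 2), and MX protein was not measured. With edgeR this was the only subfamily in which every tested gene rose. DESeq2 also called every tested IFIT, IFI27 family, galectin and APOL9 gene higher, and limma-voom every galectin and APOL9 gene. Mx2 (chromosome 16, 97536081 to 97560901, mm10) was at 2.51, 5.91, 1.73 and 4.50 CPM in controls 1 to 4 and at 11.7, 19.3, 28.8 and 17.4 CPM in knockouts 1 to 4, the order in which values are given throughout. Every knockout was above every control, and the log2 fold change of 2.40 (SE 0.40, adjusted p = 0.0107) also passed in every fit that left out a library. Mx1, next to it on the chromosome (97447035 to 97462906), was at 2.49, 5.85, 2.37 and 5.49 CPM among controls, with knockouts at 8.66, 16.6, 32.7 and 15.8 CPM. Its groups did not overlap either, with a log2 fold change of 2.19 (SE 0.46, adjusted p = 0.0252).

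IFIT proteins bind viral RNA that lacks the cap modifications of the host. The 4 genes lie together on chromosome 19 between 34550550 and 34650009. Of the 3 tested, Ifit3 rose, from 0.28 to 0.93 CPM in controls to 1.00 to 6.11 CPM in knockouts (log2 fold change 2.33, SE 0.58, adjusted p = 0.0387). Ifit1, the most abundant, was at 4.52, 12.7, 5.27 and 11.8 CPM in controls, the knockouts reading 11.9, 24.5, 56.1 and 29.6 CPM. Knockout 1 lay among the controls there, and the log2 fold change of 1.83 (SE 0.52, adjusted p = 0.0662) did not pass. Ifit2 was at 0.698, 2.24, 0.863 and 2.77 CPM in the 4 control libraries, and knockout libraries had 2.15, 3.37, 9.76 and 3.63 CPM, with knockout 1 below controls 2 and 4 (log2 fold change 1.53, SE 0.57, adjusted p = 0.129). Ifit3b had too few counts to be tested, with at most 0.256 CPM in controls and 0.251 to 2.26 CPM in knockouts. Ifit3 and Ifit3b are near-identical copies, so how reads were split between them is uncertain, and the annotated span of Ifit1bl1 overlaps those of Ifit1 and Ifit3b.

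The ISG15 system attaches the ubiquitin-like protein ISG15 to other proteins through the activating enzyme UBA7, the conjugating enzyme UBE2L6 and, in mice, the ligase HERC6. All 4 genes had positive fitted changes of 0.90 to 2.21 (log2), none passed with edgeR, and 3 had an unadjusted p under 0.05. DESeq2 called 3 of the 4 higher and limma-voom 2. Isg15 itself was at 4.22, 17.99, 7.79 and 11.8 CPM among controls, with knockouts at 17.1, 39.1, 96.0 and 41.0 CPM. Knockout 1 was just below control 2, and the other 3 knockouts were above all controls (log2 fold change 2.21, SE 0.59, adjusted p = 0.0582). Ube2l6 was at 12.8, 23.1, 9.70 and 19.0 CPM in controls, the knockouts reading 17.1, 28.1, 48.6 and 26.7 CPM (log2 fold change 0.90, SE 0.36, adjusted p = 0.151). Herc6 (adjusted p = 0.0519) and Uba7 (adjusted p = 0.191) had log2 fold changes of 1.33 and 1.22.

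Among membrane-bound restriction factors 1 of 3 tested genes passed. Bst2 (tetherin, which holds budding virions at the cell surface) rose, from control values of 8.91, 24.8, 11.3 and 26.4 CPM to 36.4, 60.3, 123 and 55.0 CPM in the knockouts, with no overlap (log2 fold change 1.94, SE 0.48, adjusted p = 0.0454). IFITM proteins block fusion of virus and cell membranes, and their genes sit together on chromosome 7. Ifitm3 was at 325, 374, 330.4 and 423 CPM in the 4 control libraries, and knockout libraries had 389, 431, 628 and 421 CPM. Knockouts 1 and 4 lay within the control range and knockout 2 barely above it, and the log2 fold change of 0.36 (SE 0.16, adjusted p = 0.168) did not pass. Ifitm2 was the one tested member with a negative fitted change, at 104, 130.3, 144 and 137 CPM among controls, with knockouts at 116, 95.1, 120.1 and 101 CPM (log2 fold change -0.26, SE 0.12, adjusted p = 0.198). Its groups overlapped. Ifitm1 was near the floor, at 0.112 to 0.400 CPM in controls and 0.0316 to 0.131 CPM in knockouts, and was not tested. Levels between genes were compared per kilobase of annotated exon, where Ifitm3 (536 CPM per kilobase in controls) and Ifitm2 (197) were the 2 highest members, ahead of Ifi27l2a (70.05) and Ifi27 (56.8).

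IFI27 proteins are small membrane proteins of mitochondria and the nuclear envelope. Ifi27l2a rose, from control values of 13.4, 54.2, 14.8 and 47.3 CPM to 98.3, 148, 253 and 119.7 CPM in the knockouts (log2 fold change 2.26, SE 0.54, adjusted p = 0.0408). The lowest knockout, knockout 1, was well above the highest control. Ifi27 was at 87.1, 90.1, 67.1 and 89.0 CPM in controls, the knockouts reading 119, 96.8, 104 and 107 CPM. These groups did not overlap but differed little, with a log2 fold change of 0.35 (SE 0.11, adjusted p = 0.0694) that did not pass. The annotated spans of these 2 genes overlap on chromosome 12, and the strand setting of the read counting is unknown.

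Effectors that act on RNA or nucleotides had the highest median among the subfamilies with more than 2 tested genes, 2.17 (log2) over 6, and 2 of the 6 rose. Helz2, a nuclear helicase and coactivator, was at 73.7, 95.4, 58.6 and 90.7 CPM in the 4 control libraries, and knockout libraries had 131, 145, 154 and 130.0 CPM. Its knockouts lay close together and above all controls, and the log2 fold change of 0.81 (SE 0.14, adjusted p = 0.00900) also passed in each fit that left out 1 library. Ddx60, a helicase that aids RNA sensing, rose from 2.03 to 8.63 CPM in controls to 11.1 to 51.9 CPM in knockouts (log2 fold change 2.31, SE 0.55, adjusted p = 0.0403). Samd9l, a translation-inhibiting restriction factor, was at 3.32, 23.5, 1.97 and 8.35 CPM among controls, with knockouts at 40.3, 55.0, 143 and 97.4 CPM. Its groups did not overlap and the fitted change was 9.09-fold, but controls alone spanned 11.9-fold and the log2 fold change of 3.18 (SE 0.82, adjusted p = 0.0548) did not pass. Rsad2 (viperin, which makes a chain-terminating nucleotide) and its neighbour on chromosome 12, the nucleotide kinase gene Cmpk2, had log2 fold changes of 2.27 and 2.07 with adjusted p = 0.0550 and 0.0763. The RNA exonuclease gene Isg20 had 0.67 (adjusted p = 0.416).

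Guanylate-binding proteins and immunity-related GTPases coat and disrupt the vacuoles of intracellular microbes, and both families are classical targets of interferon gamma. None of the 9 tested genes passed with edgeR, although all had positive fitted changes of 0.86 to 2.18 (log2) with a median of 1.40, and 5 had an unadjusted p under 0.05. DESeq2 called 2 of the 9 higher and limma-voom 0, and neither called one lower. Gbp2, the most abundant GBP gene, was at 21.1, 60.3, 13.7 and 55.3 CPM in controls, the knockouts reading 27.4, 57.7, 128 and 60.0 CPM. Only knockout 3 stood clear of controls 2 and 4 (log2 fold change 0.86, SE 0.58, adjusted p = 0.394). Gbp7 was at 3.99, 12.1, 3.48 and 11.1 CPM in the 4 control libraries, and knockout libraries had 8.34, 18.8, 32.3 and 20.1 CPM, with knockout 1 below 2 controls (log2 fold change 1.38, SE 0.52, adjusted p = 0.137). Irgm1, a regulator of the other IRG proteins, was at 21.9, 39.3, 11.1 and 36.5 CPM among controls, with knockouts at 35.2, 57.6, 122 and 72.5 CPM, and knockout 1 was again below controls 2 and 4 (log2 fold change 1.40, SE 0.47, adjusted p = 0.107). Igtp was at 12.1, 21.9, 5.27 and 22.3 CPM in controls, the knockouts reading 14.3, 29.9, 67.6 and 42.1 CPM (log2 fold change 1.32, SE 0.56, adjusted p = 0.179). Gbp3 alone among the 9 had groups that did not overlap (log2 fold change 1.56, adjusted p = 0.0626). Gbp6, Gbp9, Iigp1 and Tgtp1 had adjusted p-values of 0.168 to 0.277. Iigp1 spanned 15.3-fold and Tgtp1, a near-identical copy of Tgtp2, 29.5-fold between the lowest and highest knockout.

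The position of knockout 1 was lower for these 9 genes. Its mean log2 CPM relative to the 8 libraries was -0.73 over the 9 GBP and IRG genes and -0.04 over the other 40 tested members. It exceeded all controls for 1 of the 9 and for 20 of the other 40. Among those 40, knockout 1 was below the highest control for every tested ISG15-system gene and every PARP and DTX3L gene. Its mean was -0.27 over the ISG15 system and -0.26 over the PARP and DTX3L genes. How often knockout 1 exceeded all controls was not counted over all tested genes. Whether the families differ in their response to the genotype was not tested.

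**Figure D3:**
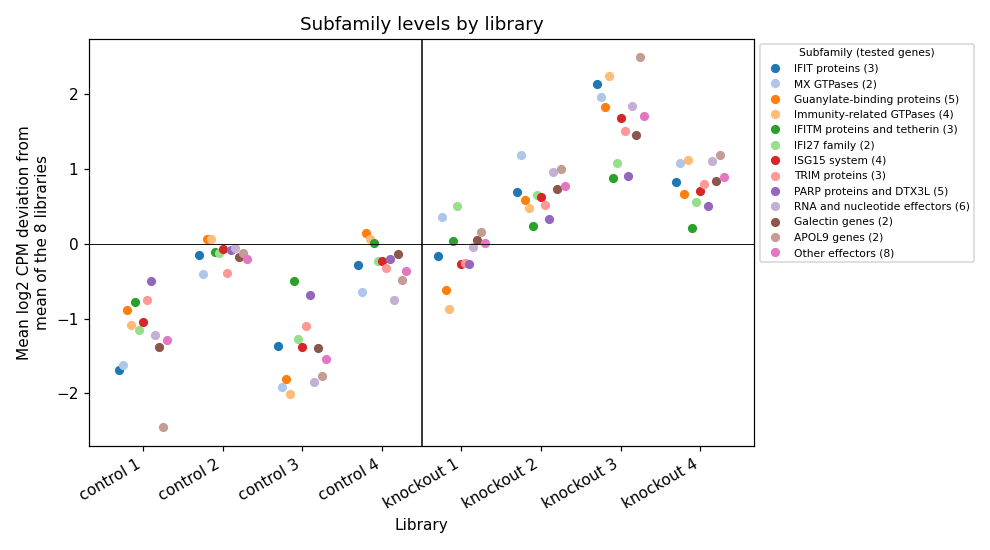
Mean log2 CPM of each subfamily's tested genes, relative to their mean over the 8 libraries (y axis), in each library (x axis), with 1 point per subfamily and the number of genes in the legend. Guanylate-binding proteins and immunity-related GTPases are the 2 lowest points in knockout 1, and MX GTPases and the IFI27 family the 2 highest there.

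PARP proteins transfer ADP-ribose and several of them restrict viruses, and PARP9 works as a pair with the ubiquitin ligase DTX3L. This subfamily had moderate, even changes of 0.52 to 0.96 (log2) over 5 genes, all with an unadjusted p under 0.05, and 2 rose. Parp9 was at 34.7, 50.7, 33.6 and 43.0 CPM in the 4 control libraries, and knockout libraries had 48.0, 70.1, 115 and 81.2 CPM (log2 fold change 0.96, SE 0.25, adjusted p = 0.0465). Dtx3l rose from 26.8 to 39.4 CPM in controls to 36.5 to 76.3 CPM in knockouts (log2 fold change 0.88, SE 0.22, adjusted p = 0.0380). For both, knockout 1 was below control 2 and the other 3 knockouts were above every control. The annotated spans of these 2 genes overlap on chromosome 16. Parp14 was at 42.3, 59.1, 34.0 and 52.2 CPM among controls, with knockouts at 45.9, 75.9, 111 and 89.8 CPM (log2 fold change 0.78, SE 0.27, adjusted p = 0.101). Parp12 and Parp10 had log2 fold changes of 0.76 and 0.52 (adjusted p = 0.0826 and 0.169).

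TRIM genes encode ubiquitin ligases, and none of the 3 passed with edgeR, although all had an unadjusted p under 0.05. DESeq2 called 1 of them higher and limma-voom 0. Trim30a had the largest fitted change of any member, 11.03-fold. It was at 1.01, 1.47, 0.400 and 2.42 CPM in controls, the knockouts reading 2.18, 7.46, 37.2 and 11.7 CPM, with knockout 1 below control 4 (log2 fold change 3.46, SE 0.89, adjusted p = 0.0507). Trim21, a cytosolic antibody receptor, was at 8.60, 10.6, 6.84 and 7.80 CPM in the 4 control libraries, and knockout libraries had 7.48, 11.7, 17.8 and 14.4 CPM (log2 fold change 0.61, SE 0.24, adjusted p = 0.145). Trim25, which activates the RNA sensor RIG-I, was at 64.4, 75.6, 90.3 and 73.0 CPM among controls, with knockouts at 96.7, 92.6, 96.7 and 86.0 CPM. Control 3, the lowest of the 8 libraries for 35 members, was the highest control for Trim25, and the log2 fold change of 0.29 (SE 0.10, adjusted p = 0.104) did not pass.

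Lgals9 encodes a galectin and Lgals3bp a secreted protein that binds galectins. Lgals9 rose, from control values of 47.4, 87.7, 77.7 and 84.3 CPM to 106, 155, 195 and 137 CPM in the knockouts (log2 fold change 1.00, SE 0.22, adjusted p = 0.0276). Lgals3bp was at 9.13, 26.2, 5.36 and 28.9 CPM in controls, the knockouts reading 29.6, 52.6, 112 and 67.9 CPM. Its groups were separated by less than 1 CPM between control 4 and knockout 1, and the log2 fold change of 1.91 (SE 0.60, adjusted p = 0.0879) did not pass. The apolipoprotein L genes Apol9a and Apol9b, near-identical copies on chromosome 15 whose separate counts are uncertain, moved alike. Apol9a rose from 1.09, 5.59, 1.48 and 4.24 to 7.52, 13.0, 34.4 and 15.1 CPM (log2 fold change 2.50, SE 0.63, adjusted p = 0.0477). Apol9b was at 0.838, 4.54, 1.69 and 3.62 CPM in the 4 control libraries, and knockout libraries had 5.01, 9.43, 28.5 and 10.6 CPM, also without overlap (log2 fold change 2.33, SE 0.65, adjusted p = 0.0625).

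Of the 8 tested genes outside these families 6 rose. Tor3a, an ATPase of the endoplasmic reticulum (chromosome 1, 156653617 to 156674339), had the smallest adjusted p of all members. It was at 19.1, 21.0, 16.6 and 20.9 CPM among controls, with knockouts at 30.3, 35.03, 40.6 and 33.4 CPM, a 1.80-fold difference with a narrow spread in both groups (log2 fold change 0.85, SE 0.12, adjusted p = 0.00453). Ifi35, whose protein forms a complex with NMI, rose from control values of 16.5, 25.6, 15.9 and 21.0 CPM to 27.5, 37.8, 60.6 and 36.7 CPM in the knockouts (log2 fold change 1.04, SE 0.24, adjusted p = 0.0308). Nmi itself had a log2 fold change of 0.61 (adjusted p = 0.200). Ifi44, which encodes a cytoplasmic antiviral protein, rose from 1.87, 5.40, 1.82 and 9.26 to 9.74, 29.9, 86.6 and 36.3 CPM. Knockout 1 was only just above control 4 there, and the change was 8.86-fold (log2 fold change 3.15, SE 0.77, adjusted p = 0.0448). Rtp4, a Golgi chaperone of receptors whose span overlaps that of Masp1, rose from 5.22, 15.8, 2.62 and 12.8 to 23.5, 38.9, 79.3 and 43.9 CPM (log2 fold change 2.35, SE 0.59, adjusted p = 0.0474). The apoptosis-linked gene Xaf1 and the PHD-finger gene Phf11d also rose, with log2 fold changes of 1.83 and 1.91 (adjusted p = 0.0331 and 0.0434). Sp100, a component of nuclear bodies, had 1.87 (adjusted p = 0.0843). Epsti1 was near the floor at 0.0358 to 0.129 CPM over all libraries and was not tested.

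**Figure D4:**
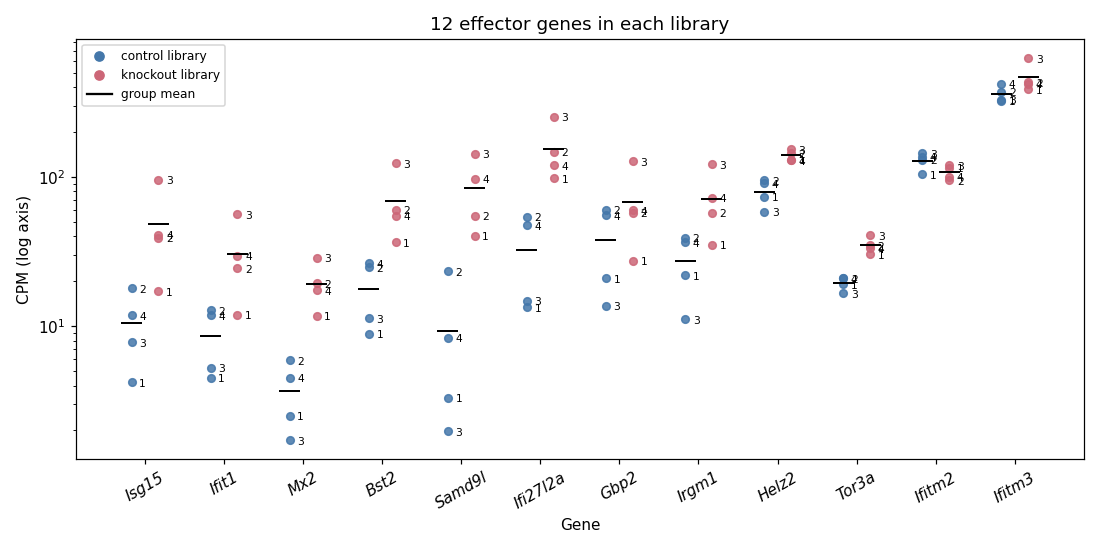
CPM of 12 effector genes (x axis) in each library, on a log axis (y axis); blue points are controls, red points knockouts, digits are replicate numbers and black bars are group means. Tor3a and Helz2 have tight, separate groups, Samd9l has controls from 1.97 to 23.5 CPM, and the groups of Isg15, Ifit1, Gbp2, Irgm1, Ifitm2 and Ifitm3 overlap.

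Members that were abundant in controls had smaller fold changes. The 6 members at or above 50 CPM in controls (Ifitm2, Ifitm3, Ifi27, Trim25, Helz2 and Lgals9) had log2 fold changes of -0.26 to 1.00, with a median of 0.36. The 43 tested members below that level had 0.52 to 3.46, with a median of 1.83. Of the 6, Helz2 and Lgals9 rose, and of the 43, 15 rose. The dividing level was chosen after the values were seen, and control values enter both quantities.

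Other genes of the interferon pathway were followed in 8 lists with 93 tested genes, of which 21 rose and 2 fell. The same rule called 4.33% of all tested genes higher and 4.54% lower, the shares to set beside each list below. Interferon genes were barely detected: 2 of 21 listed genes had enough counts to be tested, and edgeR called neither, with 0 at an unadjusted p under 0.05 and 0 by DESeq2 and limma-voom. Ifnl2, a type III interferon gene, was at 0.112, 0.639, 0.123 and 0.730 CPM in controls, the knockouts reading 0.322, 0.458, 1.07 and 0.505 CPM (log2 fold change 0.56, SE 0.61, adjusted p = 0.602). Ifnl3 was at 0.0838, 0.575, 0.0616 and 0.351 CPM in the 4 control libraries, and knockout libraries had 0.394, 0.622, 0.808 and 0.316 CPM (log2 fold change 1.01, SE 0.60, adjusted p = 0.319). For both genes controls 2 and 4 were above controls 1 and 3, and knockout 3 was the highest library. These are near-identical genes at a few counts per library. Ifng was at 0 counts in all 8 libraries.

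Among receptors and kinases 1 of 9 tested genes rose. Jak2, a kinase of the interferon gamma receptor among others, was at 62.7, 63.5, 56.1 and 64.1 CPM among controls, with knockouts at 147, 129, 80.4 and 94.8 CPM (log2 fold change 0.87, SE 0.17, adjusted p = 0.0144), with knockout 1 highest and knockout 3 lowest of the knockouts. Ifnlr1, the type III receptor chain, had non-overlapping groups and a log2 fold change of 0.34 (SE 0.10, adjusted p = 0.0631). STAT and IRF factors had 4 of 8 genes higher. Irf9 was at 41.7, 72.1, 33.1 and 59.1 CPM in controls, the knockouts reading 93.4, 128, 169 and 132 CPM, and Stat2 went from 38.7 to 81.6 CPM in controls to 104 to 251 CPM in knockouts, log2 fold changes of 1.34 and 1.498 (adjusted p = 0.0168 and 0.0211).

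Sensors and adaptors had 4 of 12 tested genes higher, among them the RIG-I-like receptor genes Dhx58 (log2 fold change 2.29, SE 0.45, adjusted p = 0.0211) and Ddx58 (log2 fold change 0.93, SE 0.22, adjusted p = 0.0310). The OAS family with RNase L had 6 of 9 higher, Oas1b with a log2 fold change of 1.69 (SE 0.31, adjusted p = 0.0132) and Oas1g with a log2 fold change of 1.88 (SE 0.38, adjusted p = 0.0201). Of 6 feedback regulators and nucleases, 3 rose and 1 fell. Socs3, an inhibitor of JAK signalling downstream of interleukin 6 family cytokines, fell from control values of 541, 404, 394 and 538 CPM to 311, 316, 309 and 285 CPM in the knockouts (log2 fold change -0.62, SE 0.12, adjusted p = 0.0144). Pias1, which encodes a SUMO ligase, rose (log2 fold change 0.47, SE 0.09, adjusted p = 0.0144).

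Genes linked to interferon gamma gave 0 calls among 14 tested by edgeR. With 4.33% of all tested genes called higher, 0 calls in a list this short lies near that share. At an unadjusted p under 0.05, 4 were higher and 0 lower, against 13.0% and 13.2% of all tested genes. DESeq2 called 3 of the 14 higher and limma-voom 0. Of the 14 fitted changes 12 were positive, and the median log2 fold change was 0.55. The peptide transporter gene Tap1 had a log2 fold change of 0.72 (SE 0.21, adjusted p = 0.0621) and the MHC class I transactivator gene Nlrc5 a log2 fold change of 0.49 (SE 0.17, adjusted p = 0.0928). Family relatives left out of the effector set had 3 of 33 tested genes higher and 1 lower, with a median of 0.15. Apol7a, a relative of Apol9a, was at 6.59, 5.91, 2.16 and 6.66 CPM in the 4 control libraries, and knockout libraries had 10.3, 18.3, 36.5 and 21.8 CPM (log2 fold change 2.03, SE 0.44, adjusted p = 0.0288). Ifi27l2b rose at under 1 CPM (log2 fold change 2.73, SE 0.55, adjusted p = 0.0149), and the galectin gene Lgals1 fell (log2 fold change -1.40, SE 0.38, adjusted p = 0.0441).

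Markers of other cell types, some of which also express interferon-stimulated genes, were also followed. The 4 pan-leukocyte genes, Ptprc among them, summed to 2.22 to 5.08 CPM in controls and 1.26 to 3.80 CPM in knockouts. Macrophage and monocyte genes (8 of 8 in the files) summed to 3.20 to 12.1 and 4.10 to 17.4 CPM, highest in knockout 2. T and NK cell genes (8 of 10) summed to 173 to 243 and 239 to 337 CPM, nearly all of it Thy1, while the other 7 were under 1 CPM in all libraries and Ncr1 was at 0. Neutrophil genes (7 of 8, Ngp at 0) summed to 22.1 CPM in control 3 and to 4.98 to 7.37 CPM in the other 7 libraries. Control 3, the lowest library for 35 effector genes, also had the highest pan-leukocyte and endothelial sums.

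The 9 Langerhans and dendritic cell genes summed to 228 to 314 CPM in controls and 229 to 414 CPM in knockouts, mostly Epcam, which keratinocytes can also express. Cd74, the invariant chain of MHC class II, was at 39.9, 15.5, 29.4 and 13.1 CPM among controls, with knockouts at 16.8, 20.0, 33.8 and 11.9 CPM. Knockout 3, the highest library for most effector genes, was the highest knockout, and control 1, a low library for them, was the highest of all. H2-Ab1, a class II chain, was at 13.0, 6.36, 8.53 and 3.45 CPM in controls, the knockouts reading 3.97, 4.88, 13.8 and 4.99 CPM, and was highest in knockout 3. Neither passed between genotypes (adjusted p = 0.747 and 0.851). The other listed class II chain gene, H2-Aa, and the Langerhans cell gene Cd207 were highest in control 1, at 14.1 and 6.31 CPM. Knockout 3 was the highest knockout for both, at 11.5 and 3.46 CPM, and they did not pass either (edgeR adjusted p = 0.704 and 0.732).

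Fibroblast genes summed to 5.98 to 12.1 and 3.41 to 24.0 CPM, endothelial genes to 0.543 to 2.09 and 0.189 to 0.97 CPM, and melanocyte genes to 16.2 to 18.7 and 12.6 to 14.2 CPM. Among them Dcn, a proteoglycan gene of fibroblasts, rose, from control values of 0.531, 0.415, 0.801 and 0.905 CPM to 1.504, 2.19, 2.65 and 1.33 CPM in the knockouts, highest in knockout 3 (log2 fold change 1.53, SE 0.33, adjusted p = 0.0201). The fibroblast genes Col1a1, Col1a2 and Col3a1 differed from it. In knockout 3 they were at 0.744, 1.07 and 0.323 CPM, below every control. In knockout 1 they were at 8.91, 8.59 and 4.87 CPM, above every control. None of these collagen genes passed (log2 fold changes 0.24, -0.44 and 0.10, adjusted p = 0.875, 0.716 and 0.956). Mitf, a melanocyte transcription factor gene, fell, from control values of 9.61, 12.1, 11.6 and 12.3 CPM to 6.48, 7.53, 6.66 and 6.38 CPM in the knockouts (log2 fold change -0.75, SE 0.13, adjusted p = 0.00863). The other tested melanocyte genes did not share this fall. Tyr was higher in every knockout than in every control (log2 fold change 0.30, adjusted p = 0.304). Pmel had 0.10 and Dct -0.48 (adjusted p = 0.776 and 0.359), with overlapping groups. Among the keratinocyte markers Krt10, a keratin of differentiating suprabasal cells, rose, from control values of 4464, 4556, 4367 and 6988 CPM to 7998, 10782, 8079 and 9228 CPM in the knockouts (log2 fold change 0.82, SE 0.17, adjusted p = 0.0169). The differentiation marker Ivl and the desmosome gene Dsg3 had non-overlapping groups and log2 fold changes of 0.83 and 0.56 that did not pass (adjusted p = 0.106 and 0.0618). These markers were singled out after their values were seen, and the part of other cell types or of differentiation in the effector genes' differences was not tested.

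In the 5 libraries without Y-linked transcripts, 2 controls and 3 knockouts, 9 of 50 tested members were called higher, and 0 lower, with a median log2 fold change of 1.67. Over all tested genes that fit called 141 of 13256 higher, where the fit to all 8 libraries called 563 of 13016. The libraries with these transcripts held 1 knockout, too few for a fit of their own. With a term for the presence of Y-linked transcripts in the fit to all 8 libraries, 5 of 49 members were called higher, 0 lower, and the median was 1.17. Over all tested genes the fit with this term called 537 of 13016 higher.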

How the data were processed

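Gene counts of 8 libraries of mouse skin keratinocytes were analysed, 4 per genotype. The authors deposited 1 table of read counts per gene and library, with no normalization. Per the submitters' processing notes, the tools were TopHat2 2.1.0, Trimmomatic 0.35, SAMtools 0.1.18 and FastQC 0.11.4, with genome build mm10. No label or header states the counting tool, its annotation or its strand setting. Rows that name no gene were left out of library sizes; those for reads outside genes held 15.7 to 21.7% of the counts and those for ambiguous reads 0.918 to 1.11%.

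Genes kept by filterByExpr (13016 of 24421) were tested with edgeR 4.0.16 (R 4.3.3; TMM scaling, robust quasi-likelihood fit, knockout against control), with Benjamini-Hochberg adjustment over all of them and a threshold of 0.05. A standard error is the size of the log2 fold change divided by the square root of F. CPM used TMM-scaled library sizes, and log2 CPM a prior count of 2. Alternatives were DESeq2 1.42.0, limma-voom (limma 3.58.1), other scalings and filters, a non-robust fit, a replicate block, a term for Y-linked transcripts and leaving out libraries. Exon lengths came from GENCODE M21 and gene positions from RefSeq, both on GRCm38, the assembly of mm10.

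The members and the gene lists were chosen with earlier results of these data known. All members are named. Values in every library are given for the 2 most abundant of each subfamily, the 5 with the smallest adjusted p, the 5 with the largest fold change and any that fell, and also for Bst2, added after its values were seen. Of each pathway list the 2 genes with the smallest adjusted p, and any that fell, are named.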

Additional observations from a re-analysis of the deposited data

Results flagged for a closer look

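Ifi27 in control 3 stood apart from the other controls. It was at 67.1 CPM there, against 87.1 CPM in the next lowest control, a gap that is large for the range of the 4 control libraries. Control 3 was also the lowest of the 8 libraries for most other effector genes. Chance alone flags about 1 in 20 groups, and the control and knockout groups of every member were examined. No other group was flagged, so this flag is no more than chance alone would give.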

How the results depend on the processing

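The number of members called higher, 17 of 49 in the edgeR fit, was 34 with DESeq2 and 27 with a non-robust dispersion fit. It was 9 with scaling by library totals only, 6 of 52 with no filter on low counts, 6 with a replicate block, 5 with a term for Y-linked transcripts and 9 of 50 in the libraries without them. Leaving out 1 library at a time gave 3 (without knockout 2) to 23 (without knockout 1). Over all tested genes the edgeR fit called 563 of 13016 higher, DESeq2 1093 and the non-robust fit 579. That count was 370 with library totals only, 518 of 18063 with no filter and 375 with the replicate block. It was 537 with the term for Y-linked transcripts and 141 of 13256 in the libraries without them. Without knockout 2 it was 200, and without knockout 1 it was 352. No setting called a member lower, and none reversed a direction; the cause of these shifts was not tested. The median log2 fold change stayed between 1.02 and 1.77. After each gene's group mean was taken from log2 CPM, same-numbered libraries correlated over all tested genes at -0.17, -0.23, -0.05 and -0.06. Controls and knockouts with unlike numbers correlated at -0.11 to 0.25. Same-numbered libraries were thus no more alike than others. Subtracting the group means constrains these values, so they cannot decide whether the labels' numbers pair the libraries. Knockout 4 is numbered by its title, but its file carries another number, which leaves the last pair and the block uncertain. A few members lie near the threshold: 13 that were not called had an adjusted p of 0.05 to 0.1. The 3 untested members had too few counts for a test. Over the named genes and all settings, 969 values kept their side of the threshold, 176 lost a call and 57 gained one.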
